A study of Mus musculus with 40 samples.

Results

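Arc, Dusp6 and Ier5 are genes that neurons transcribe soon after strong activity and whose products act on synapses and signalling rather than as transcription factors. They were chosen because their transcripts were higher in cortex after repeated head impact than after sham handling in saline-treated mice, and their members are the 4 RefSeq transcript rows of these 3 symbols among 6831 rows of 5849 symbols. Cortex was taken from male C57BL/6 mice (C57Bl/6J in the study's methods) of 12 weeks, 24 h after daily sessions of either high-frequency head impact (HF-HI) or a sham procedure. Sham mice had the same anaesthesia without impact, and each session was preceded by 1 h by an injection of memantine, which blocks glutamate receptors of the NMDA type, or of its saline vehicle. There were 10 libraries in each group (saline sham, memantine sham, saline HF-HI and memantine HF-HI), and the labels name no transgene. The design text of the series gives 4 samples per group, while its labels give 10, and the labels were used. The library numbers 1 to 10 recur in each group, and what a shared number stands for is not given in the sources used here. By the correlation of deviations from group means over all rows, 6 of 60 pairs matched best with their own number. Counts of same-numbered pairs below are therefore a description. Replicate libraries were separate samples in the labels, and the p-values below measure the spread between them.

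The counts were deposited after a variance-stabilising transformation, which was inverted to give normalised read counts (reads divided by the size factor of the library). Summed reads per library ran from 13322404 to 17529644, so counting error is small beside the spread between libraries. In bulk cortex, fewer cells that express a gene and less RNA per cell cannot be told apart. Markers of cortical excitatory neurons were present at similar summed levels in the 4 groups, with medians from 22857 to 23393 normalised counts for 11 rows of 9 symbols. Markers of striatum, a neighbouring tissue, were present too, at medians of 57519 in saline sham and 58240 in memantine sham, against 49216 in saline HF-HI and 55586 in memantine HF-HI (24 rows of 13 symbols).

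Arc (activity-regulated cytoskeleton-associated protein) is an immediate early gene whose mRNA travels into dendrites, where the protein promotes the removal of AMPA receptors from the synaptic membrane. Dusp6 is a cytoplasmic phosphatase that switches off the kinase ERK and is itself induced by ERK signalling, so it acts as a feedback brake. Ier5 is an immediate early response gene whose product brings the phosphatase PP2A to substrates such as the heat shock factor HSF1.

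Arc lies on chromosome 15 of mouse build mm10, on the minus strand, from position 74669083 to 74672568 for NM_018790 and to 74672570 for NM_001276684. Its 2 transcript rows have 3 exons each, share 3052 bases and encode the same protein from 1188 coding bases. NM_018790 has 3 further bases at the start of exon 2 (chromosome 15, 74670317 to 74670319), in the untranslated end of the message, and NM_001276684 has 2 further bases at its 5′ end. The junction of exon 1 and exon 2 is shown because it is the main stretch by which a read can be assigned to either row, with 12 bases on each side and the extra bases in capitals:
Arc NM_018790: cctggcccccagCAGtgattcatacca
Arc NM_001276684: cctggcccccagtgattcatacca
Only reads that cover these bases or the 5′ end can tell the rows apart, so the split of reads between the rows is weakly determined, and Arc levels are given mainly as the sum of both rows.

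Dusp6 (NM_026268) lies on chromosome 10, plus strand, 99263231 to 99267488, with 3 exons and 2796 transcribed bases. Ier5 (NM_010500) lies on chromosome 1, minus strand, 155096361 to 155099636, in a single exon of 3276 bases. Their 250 bases before the transcription start, from RefSeq on build GRCm38.p6, are shown as a description. No link between these bases and the levels of the genes was tested. They are read in the direction of transcription, for Dusp6 from chr10:99262981-99263230 and for Ier5 from chr1:155099637-155099886 (minus strand), with matches to the CCAAT box and to the core of the TATA box (TATAA) in capitals:
Dusp6: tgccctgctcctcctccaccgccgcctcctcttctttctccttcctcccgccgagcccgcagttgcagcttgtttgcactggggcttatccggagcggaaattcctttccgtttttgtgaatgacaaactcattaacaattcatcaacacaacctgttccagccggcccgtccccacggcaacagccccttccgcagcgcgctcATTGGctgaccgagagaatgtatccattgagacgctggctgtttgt
Ier5: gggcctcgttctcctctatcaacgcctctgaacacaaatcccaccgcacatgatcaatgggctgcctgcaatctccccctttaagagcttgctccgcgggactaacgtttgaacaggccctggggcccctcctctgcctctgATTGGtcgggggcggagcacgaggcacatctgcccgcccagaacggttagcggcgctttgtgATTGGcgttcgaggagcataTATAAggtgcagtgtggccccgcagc
The Dusp6 window held 1 CCAAT box and the Ier5 window held 2, all on the opposite strand (ATTGG), and in each gene the one nearest the start lay at positions -46 to -42. A match to CCAAT was found in 33.8% of 32851 promoter windows of the same length, and the TATAA core, at -26 to -22 in Ier5, in 22.8%. These motifs were added to the search after the windows had been read. On either strand, neither window held the cyclic AMP response element TGACGTCA (1.55% of all windows) or its shorter core TGACG (17.8%). Neither held the AP-1 site TGANTCA (6.75%), the EGR sites GCGTGGGCG (0.536%) and GCGGGGGCG (2.57%), a CArG box (1.47%) or a MEF2 site (1.69%), which says only that these letters are not in these windows.

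In reads per kilobase of transcript, Arc was the most abundant of the 3 genes in each group. In saline sham its level was 1004 ± 395 reads per kilobase, against 396 ± 41.5 for Dusp6 and 343 ± 28.1 for Ier5 (mean ± SD, n = 10 each). Arc was also the most variable, with a coefficient of variation between libraries of one group from 24.0% in memantine HF-HI to 46.4% in memantine sham. The range for Dusp6 was 10.5% to 18.5% and that for Ier5 8.21% to 11.5%. Among all 6831 rows, ranked from the most to the least variable within groups on the deposited scale, NM_018790 was 243rd, NM_001276684 555th, Dusp6 2031st and Ier5 2982nd.

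The groups stood in the same order for each gene, from saline sham at the bottom through memantine sham and memantine HF-HI to saline HF-HI at the top. Arc summed over both rows was 3067 ± 1206 normalised counts in saline sham, 3771 ± 1752 in memantine sham, 3807 ± 912 in memantine HF-HI and 4832 ± 1190 in saline HF-HI (mean ± SD, n = 10 each). Dusp6 was 1107 ± 116, 1147 ± 212, 1206 ± 178 and 1415 ± 198 in the same order. Ier5 was 1123 ± 92.2, 1173 ± 135, 1177 ± 125 and 1261 ± 113. The middle groups lay closer to each other than the SD of either, for all 3 genes, and the libraries of any pair of groups overlapped in range.

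**Figure D1:**
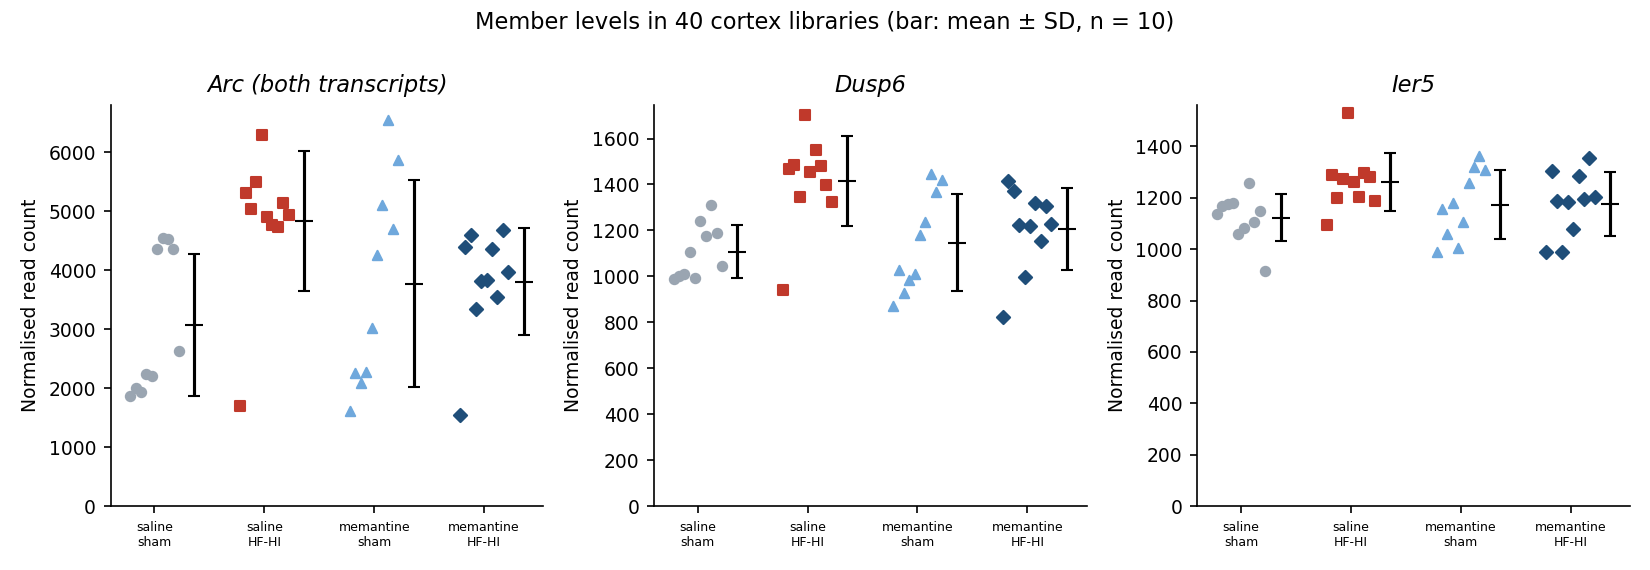
Normalised read counts (y axis, from 0) of Arc, Dusp6 and Ier5 in the 10 libraries of each group, ordered by library number from left to right within a group, with the mean and SD as a bar. The sham groups hold Arc values in 2 separate ranges, while the HF-HI groups each hold a cluster with library 1 far below it, at 1704 under saline and 1540.5 under memantine.

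The comparison of saline HF-HI with saline sham asked what head impact did without the drug, and it selected these genes, so its values are a description with no test. Arc in saline sham had a lowest value of 1874, a median of 2431 and a highest of 4537, and in saline HF-HI a lowest of 1704, a median of 4984 and a highest of 6289. Library 1 of saline HF-HI gave the 1704, and the next lowest value of that group was 4728. On the log2 scale of the normalised count plus 1, which is used for all differences below, Arc was higher by 0.69 ± 0.25 (SE) in saline HF-HI and higher in 9 of 10 same-numbered library pairs. Dusp6 was higher by 0.35 ± 0.10, in 9 of 10 pairs, and Ier5 by 0.17 ± 0.06, in 8 of 10 pairs. The difference was 0.75 ± 0.28 for the NM_018790 row and 0.59 ± 0.23 for the NM_001276684 row. All 4 rows were on the higher side at an unadjusted p under 0.05, where 4.58% of all rows were, as the choice of members fixed.

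Striatal markers moved with this comparison, with a summed level of 44417 to 68757 counts in saline sham and 45603 to 55622 in saline HF-HI. With the mean of these markers as a covariate, the Arc difference was 0.43 (95% interval -0.09 to 0.94), the Dusp6 difference 0.26 (0.05 to 0.46) and the Ier5 difference 0.12 (-0.01 to 0.26). Within groups, the correlation of the striatal mean with Arc was -0.39 over 40 libraries, with Dusp6 -0.34 and with Ier5 -0.27. The part of striatal tissue in the comparison was not tested further.

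Memantine HF-HI against memantine sham asked whether the same genes moved with impact in mice that received the drug. It compares none of the saline libraries on which the genes were selected, although its intervals and p-values use the spread pooled over all 40 libraries. Earlier results of these data were known when the genes were chosen. No member passed the test. Arc in memantine sham had a lowest value of 1611, a median of 3638 and a highest of 6551, and in memantine HF-HI a lowest of 1540.5, a median of 3903 and a highest of 4677. The difference for Arc was 0.11 (95% interval -0.39 to 0.61), with memantine HF-HI higher in 4 of 10 same-numbered pairs, numbers 2 to 5. For Dusp6 it was 0.08 (-0.12 to 0.28), higher in 5 of 10 pairs, and for Ier5 0.01 (-0.12 to 0.13), higher in 5 of 10 pairs. In the limma fit of the deposited values over all rows, the unadjusted p was 0.613 for NM_018790, 0.99 for NM_001276684, 0.438 for Dusp6 and 0.938 for Ier5, and the Benjamini-Hochberg adjusted p was from 0.971 to 0.998. In that comparison 2.39% of all rows were higher and 2.23% lower at an unadjusted p under 0.05, and 0.0146% (1 row) had an adjusted p under 0.1. The intervals give the differences that this spread between libraries leaves possible, up to 0.61 for Arc, 0.28 for Dusp6 and 0.13 for Ier5.

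Memantine HF-HI against saline HF-HI shares the saline libraries on which the genes were selected, so it is given without a test. In all 10 same-numbered pairs, memantine HF-HI had the lower Arc sum, with values from 1540.5 to 4677 against 1704 to 6289. Dusp6 was lower in 10 of 10 pairs too, from 825 to 1416 against 942 to 1702. Ier5 was lower in 6 of 10 pairs, from 990 to 1356 against 1095 to 1531. The differences were -0.33 (95% interval -0.84 to 0.17) for Arc, -0.23 (-0.43 to -0.04) for Dusp6 and -0.10 (-0.23 to 0.03) for Ier5, and with the striatal mean as a covariate they were -0.15, -0.17 and -0.07. The intervals rest on the spread of all libraries, the low library 1 of each group included, and without the libraries numbered 1, left out after the values had been seen, the Arc difference was -0.36 (-0.76 to 0.05).

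Memantine sham against saline sham asked what the drug did without impact. Arc differed by 0.25 (95% interval -0.26 to 0.75), Dusp6 by 0.04 (-0.16 to 0.23) and Ier5 by 0.06 (-0.07 to 0.19), given without a test because the saline sham libraries took part in the choice of genes. Memantine sham was the higher library in 8 of 10 pairs for Arc, 6 for Dusp6 and 5 for Ier5. The impact difference under memantine minus that under saline was -0.58 (-1.29 to 0.13) for Arc, -0.27 (-0.55 to 0.01) for Dusp6 and -0.16 (-0.34 to 0.02) for Ier5. On the deposited scale the Dusp6 value was -0.12 (-0.24 to -0.0019), and the intervals of the other member rows spanned 0. Without the libraries numbered 1, left out after the values had been seen, the values were -0.65 (-1.22 to -0.08), -0.30 (-0.52 to -0.07) and -0.19 (-0.36 to -0.01). With the striatal mean as a covariate they were -0.41 (-1.08 to 0.27), -0.21 (-0.48 to 0.06) and -0.13 (-0.31 to 0.05). These values contain the saline comparison on which the genes were selected and are a description.

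**Figure D2:**
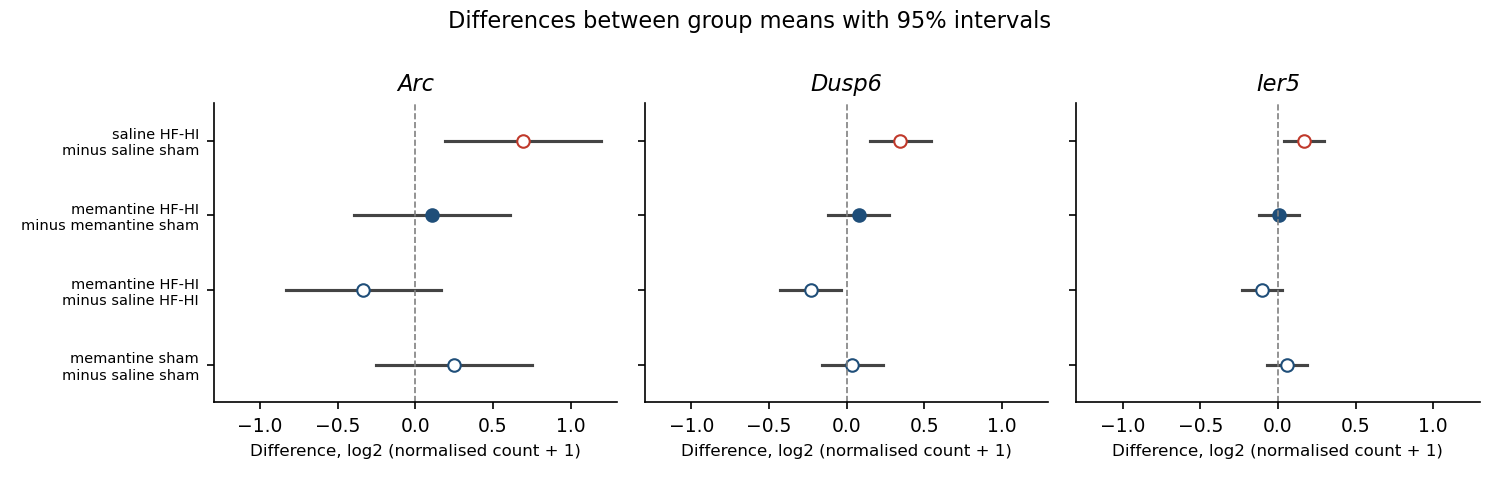
Differences between group means (points, log2 of the normalised count plus 1) with 95% intervals (lines) for Arc, Dusp6 and Ier5 in 4 comparisons, with a dashed line at 0. The filled points, memantine HF-HI minus memantine sham, are the only comparison of means without saline libraries, and their intervals span 0. The width of every interval rests on the spread pooled over all 40 libraries. The Arc interval under saline, from 0.19 to 1.19, belongs to the comparison that selected the genes.

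The sham groups were not uniform for Arc and Dusp6, and the library numbers set out where the low values lay. In saline sham, Arc counts in libraries 1 to 5 were 1874, 2005, 1934, 2239 and 2211, and those in libraries 6 to 10 were 4366, 4537, 4522, 4362 and 2623. In memantine sham they were 1611, 2254, 2089, 2271 and 3014 in libraries 1 to 5, and 4262, 5097, 6551, 4697 and 5869 in libraries 6 to 10. All sham libraries numbered 1 to 5, at 1611 to 3014, were thus below all sham libraries numbered 6 to 9, at 4262 to 6551. Library 10 lay in the low range in saline sham, at 2623, and in the high range in memantine sham, at 5869.

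The impact groups showed no such division. Saline HF-HI libraries 2 to 10 had Arc counts of 5303, 5039, 5500, 6289, 4908, 4771, 4728, 5146 and 4928, and library 1 had 1704. Memantine HF-HI libraries 2 to 10 had 4399, 4594, 3341, 3814, 3841, 4366, 3537, 4677 and 3964, and library 1 had 1540.5. Library 1 had the lowest Arc value of its group in all 4 groups, at 1540.5 to 1874.

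Dusp6 followed the same layout with a smaller range. Its counts in memantine sham were 871 to 1026 in libraries 1 to 5 and 1179 to 1444 in libraries 6 to 10, without overlap. In saline sham they were 989 to 1108 and 1047 to 1310, which overlap through library 10. Ier5 counts were 987 to 1180 and 1105 to 1361 in memantine sham, and 1058 to 1179 and 915 to 1258 in saline sham, so that the division was not seen for Ier5 in saline sham. For Arc, the gaps between same-numbered saline libraries were larger at numbers 2 to 5 than at numbers 6 to 9. Arc in saline HF-HI exceeded the same-numbered sham library by 3299, 3105, 3261 and 4078 counts at numbers 2 to 5, by 542, 234, 205 and 784 at numbers 6 to 9 and by 2305 at number 10, and at number 1 it was the lower of the pair. The ranges of these gaps overlapped for Dusp6, at 237 to 709 counts for numbers 2 to 5 and 170 to 374 for numbers 6 to 9, and for Ier5, at 24 to 473 and -57 to 191. Under memantine, Arc in HF-HI minus the same-numbered sham library was 2145, 2506, 1070 and 801 counts at numbers 2 to 5. It was -421, -732, -3014, -20 and -1905 at numbers 6 to 10, and -71 at number 1. The tested Arc difference under memantine averages over gaps of both signs.

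**Figure D3:**
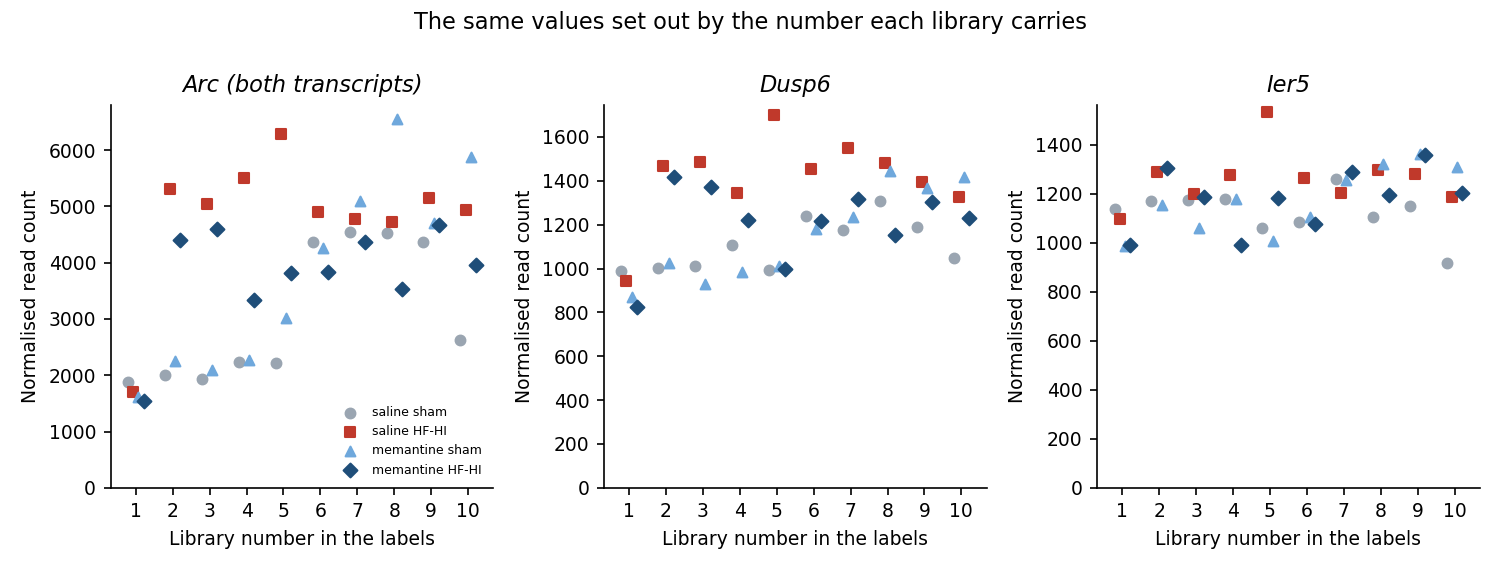
Normalised read counts (y axis, from 0) of Arc, Dusp6 and Ier5 against the number that each library carries in the labels (x axis), with 1 point per library and the groups side by side at each number. Sham libraries 1 to 5 lie at Arc counts of 1611 to 3014 and sham libraries 6 to 9 at 4262 to 6551, and the 4 libraries numbered 1 all lie at or below 1874.

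This layout was noticed after the values had been seen, and the labels name no batch, so its part in the comparisons was not tested. How many of all rows separate in this way was not counted, so the layout is not shown to be particular to these genes. Of 11 marker lists of other cell types, tissues and clock output, 1 separated numbers 1 to 5 from numbers 6 to 10 in saline sham and 0 did in memantine sham. The separated list was clock output, which includes Per1 and Per2, at 19071 to 20055 summed counts in saline sham libraries 1 to 5 and 20209 to 22783 in libraries 6 to 10. In memantine sham the same list ran from 22429 to 24920 and from 22295 to 25199. Between these sets of numbers, the Per2 row itself (NM_011066) did not overlap in either sham group. It had 970 to 1024 counts in saline sham libraries 1 to 5 and 1235 to 1624 in libraries 6 to 10. In memantine sham it had 1164 to 1571 and 1642 to 1908. Summed striatal markers ran from 49950 to 68757 and from 44417 to 59168 in saline sham, and from 47967 to 70398 and from 48717 to 63187 in memantine sham.

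The 3 genes rose and fell together between libraries of the same group, which the choice of genes by group means did not use. Ier5 in saline sham was the exception, with an r of 0.09 with Arc and 0.12 with Dusp6. After removal of the group means from the transformed values, Pearson's r over 40 libraries was 0.90 for Arc and Dusp6 (Spearman's rho 0.88), 0.61 for Arc and Ier5 (0.57) and 0.67 for Dusp6 and Ier5 (0.61). With libraries permuted within groups 100000 times, two-sided, the p-values for r were 1e-05, the smallest that so many resamples can give, 0.00014 and 5e-05, and the Benjamini-Hochberg values over the 3 pairs were 3e-05, 0.00014 and 7.5e-05. The permutation p-values for rho were 1e-05, 0.00048 and 0.00021. The permutation took libraries of a group as interchangeable and did not keep the layout by number, so these p-values also register that layout. The values of a pair share a library and its size factor, and the correlation of summed reads with Arc within groups was -0.09.

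The libraries form clusters, since Arc in sham had 2 ranges and library 1 stood apart in the impact groups. The pooled r was therefore also taken in other ways, none of which takes out the 2 sham ranges in full. Without the 2 libraries farthest from the median, which were the libraries numbered 1 of both HF-HI groups, r was 0.86, 0.52 and 0.60. With the mean of each library number removed as well, r was 0.82, 0.53 and 0.59, and without all libraries numbered 1 it was 0.83, 0.48 and 0.56.

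Within single groups the relation was not even. Arc and Dusp6 had an r of 0.92 in saline sham, 0.97 in memantine sham, 0.90 in saline HF-HI and 0.88 in memantine HF-HI (n = 10 each), and without library 1 these were 0.91, 0.96, 0.46 and 0.65 (n = 9 each). In saline HF-HI the relation therefore rested on library 1, and its Spearman's rho was 0.25. Arc and Ier5 had an r of 0.09 in saline sham against 0.79 in memantine sham, 0.71 in saline HF-HI and 0.75 in memantine HF-HI. Dusp6 and Ier5 had an r of 0.12 in saline sham, and of 0.88, 0.75 and 0.61 in the other groups, in that order. Without library 1 the memantine HF-HI value was 0.37 (n = 9), against 0.85 in memantine sham and 0.67 in saline HF-HI.

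**Figure D4:**
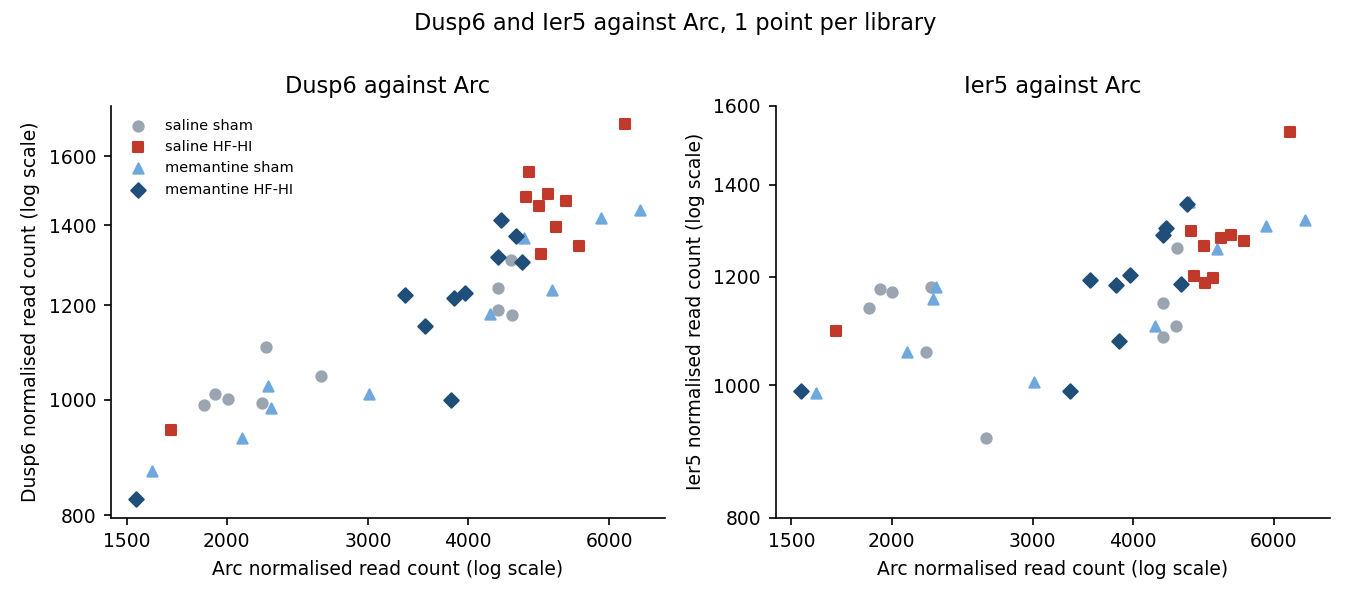
Normalised read count of Dusp6 (left) and Ier5 (right) against that of Arc, both axes on a log scale, with 1 point per library and a symbol for each group. The Dusp6 points lie along a rising band from the libraries numbered 1 to saline HF-HI library 5 (Arc 6289, Dusp6 1702), whereas the saline sham points of Ier5 show no slope (r = 0.09).

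The rows of other symbols most like Arc within groups are given as a description. Over 40 libraries with group means removed, the highest r with Arc was that of Nr4a1 (NM_010444, 0.96), an orphan nuclear receptor, followed by Egr1 (NM_007913, 0.95), a zinc-finger transcription factor. Next came Per2 (NM_011066, 0.91), a clock component, Frmd6 (NM_028127, 0.90), a FERM-domain protein, and Dusp6 (0.90). For Dusp6 the list was Frmd6 (0.93), Nr4a1 (0.91), the Arc row NM_018790 (0.90), Egr1 (0.90) and Nr4a3 (NM_015743, 0.88), a further orphan nuclear receptor. The other Arc row stood eighth for Dusp6, at 0.79.

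Nr4a1, Egr1, Per2 and Frmd6 had a layout by number like that of Arc. Nr4a1 in memantine sham had 360 to 813 counts in libraries 1 to 5 and 1008 to 1331 in libraries 6 to 10, and in saline sham 439 to 641 and 668 to 1054. Egr1 in memantine sham had 1112 to 2046 and 2465 to 3337, and in saline sham 1521 to 1865 and 1862 to 2934, which overlap. Frmd6 in memantine sham had 962 to 1045 and 1214 to 1601, and in saline sham 963 to 1076 and 1113 to 1275. The group means of Nr4a1 were ordered as those of Arc were, at 720 ± 238 in saline sham, 863 ± 338 in memantine sham, 873 ± 243 in memantine HF-HI and 1187 ± 302 in saline HF-HI (n = 10 each).

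Ier5 had a different set of most alike rows. They included Pdzrn3 (NM_018884, r = 0.74), a ubiquitin ligase, Ankrd33b (NM_001164441, 0.73), Etv5 (NM_023794, 0.73), an ETS transcription factor downstream of ERK, and Pou3f3 (NM_008900, 0.73), a POU-domain transcription factor. Dusp6 stood 26th in that order and the Arc row NM_018790 stood 51st.

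The split of Arc reads between its rows was similar in the groups. NM_018790 held 66.2% ± 3.70 of the Arc count in saline HF-HI, 64.2% ± 4.37 in memantine HF-HI, 63.5% ± 6.16 in saline sham and 61.6% ± 8.50 in memantine sham (mean ± SD, n = 10 each). Memantine HF-HI exceeded memantine sham by 2.54 percentage points (95% interval -3.81 to 8.89), in 5 of 10 pairs, and a two-sided permutation test with 100000 resamples gave p = 0.41. The lowest library value was 50.9% and the highest 73.7%, both in memantine sham. The layout by number was seen in NM_018790 without overlap in both sham groups, at 995 to 1391 and 1641 to 3205 counts under saline and at 1063 to 1583 and 2369 to 4067 under memantine.

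**Figure D5:**
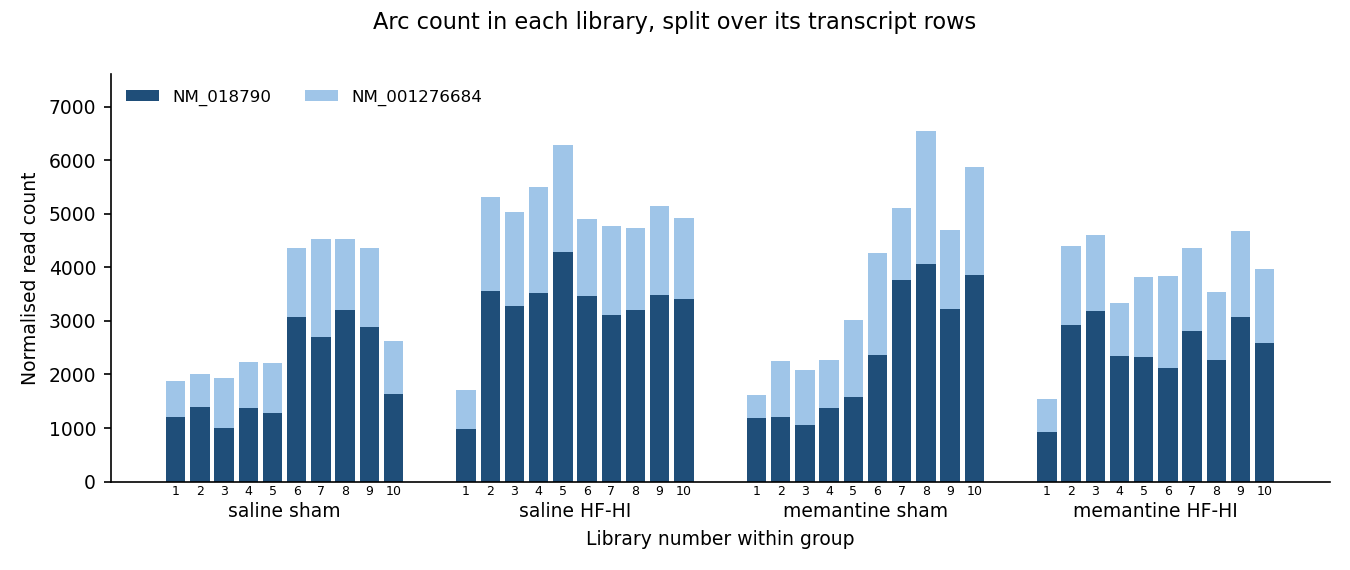
Stacked bars of the Arc normalised read count in each of the 40 libraries, from 0, with NM_018790 below and NM_001276684 above, grouped by condition and numbered as in the labels. NM_018790 holds 50.9% to 73.7% of each bar, and the sham bars numbered 1 to 5 are shorter than those numbered 6 to 9 in both sham groups.

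The wider set of activity-induced effector genes, 37 rows of 30 symbols with the members included, was counted beside all rows. Under memantine, 0 of these 37 rows were higher and 2 were lower with impact at an unadjusted limma p under 0.05, where 2.39% of all rows were higher and 2.23% lower, and 14 of 37 lay on the higher side, with a median difference of -0.03 against -0.00056 for all rows. The lower rows were Nptx2 (NM_016789), a secreted pentraxin that clusters AMPA receptors, and Spry2 (NM_011897), a feedback inhibitor of receptor tyrosine kinase signalling. Nptx2 was at 510 ± 70.1 counts in memantine HF-HI and 620 ± 89.1 in memantine sham (n = 10 each), a difference of -0.28 ± 0.09 (SE) with a limma p of 0.00503 and an adjusted p of 0.896. Spry2 was at 785 ± 43.6 and 837 ± 51.9, a difference of -0.09 ± 0.04 with a limma p of 0.0395 and an adjusted p of 0.967.

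Under saline, 4 of the 33 other rows of the effector list were higher and 7 lower with impact, where 4.58% of all rows were higher and 4.95% lower, and their median was -0.01. The higher rows were Bhlhe40, a transcriptional repressor, at 0.25, Dusp14, a dual-specificity phosphatase, at 0.18, Spry2 at 0.11 and Plk2, a polo-like kinase of synapses, at 0.10. The lower ones were a Homer1 row (NM_001284189) at -0.82, the chaperone Hspa5 at -0.31, both rows of secretogranin Scg2 at -0.27, Vgf at -0.22, the sorting receptor Sorcs3 at -0.12 and Ppp1r13b at -0.08. With the members included, 8 rows of the list were higher and 7 lower.

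The transcription factor list held 9 rows, and 4 of these were higher and 0 lower with impact under saline, where 4.58% of all rows were higher and 4.95% lower, with a median of 0.27. They were Junb at 0.72 ± 0.20 (SE), Nr4a1 at 0.72 ± 0.24, Per1 at 0.33 ± 0.15 and Klf10 at 0.27 ± 0.08. Under memantine 0 of 9 passed in either direction, where 2.39% of all rows were higher and 2.23% lower, and the median was 0.06, and the row with the smallest p was Egr3, at -0.26 ± 0.17, with a limma p of 0.14 and an adjusted p of 0.967.

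The counts for the members' partners stand beside the share of all rows that passed with impact, which was 2.39% higher and 2.23% lower under memantine and 4.58% higher and 4.95% lower under saline. Of 41 rows of Arc partners in AMPA receptor trafficking and the postsynapse, 1 was higher and 2 were lower with impact under memantine, and 2 and 2 were under saline. The higher row under memantine was Psd3 (NM_177698), a guanine nucleotide exchange factor of the postsynapse, at 0.20 ± 0.08 (limma p = 0.0217, adjusted p = 0.967). The lower rows were Gria1 (NM_008165), the GluA1 subunit of AMPA receptors, at -0.17 ± 0.07 (limma p = 0.0246) and Cacng2 (NM_007583), the AMPA receptor auxiliary subunit stargazin, at -0.10 ± 0.05 (limma p = 0.0479), both with an adjusted p of 0.967.

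Of 31 rows of the ERK cascade around Dusp6, 0 were higher and 0 lower under memantine, and 2 and 3 were under saline. The smallest p under memantine was that of Dusp3 (NM_028207), another dual-specificity phosphatase, at -0.07 ± 0.04 (limma p = 0.124, adjusted p = 0.967). Of 13 rows of Ier5 partners around HSF1 and PP2A, 1 was higher under memantine, the co-chaperone Dnajb1 (NM_018808) at 0.14 ± 0.06 (limma p = 0.0324, adjusted p = 0.967), and 1 was lower under saline.

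Between the drug arms of the impacted mice, 1.52% of all rows were higher and 2.39% lower in memantine HF-HI at an unadjusted p under 0.05. Of the 33 other effector rows 1 was higher and 6 lower, and of the 9 transcription factor rows 0 were higher and 2 lower, these being Klf10 at -0.24 ± 0.08 (SE) and Nr4a1 at -0.44 ± 0.24. The 6 lower effector rows were Nptx2 at -0.26, Pcsk1, a prohormone convertase, at -0.22, Nrn1, a neurite-promoting membrane protein, at -0.16, Spry2 at -0.14, Rgs4 at -0.09 and Syt4 at -0.06, and none of these rows had an adjusted limma p under 0.1. In the sham mice 3.67% of all rows were higher and 3.84% lower under memantine, and 0 of the 33 other effector rows were higher and 4 lower.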

How the data were processed

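Total RNA from cortex was depleted of ribosomal RNA and sequenced in pairs from stranded libraries. Per the study's methods, the authors aligned reads to mouse build mm10 with STAR, counted reads per RefSeq transcript with eXpress and normalised them with DESeq2, while the submitters' processing notes name HISAT2 and StringTie. The deposited values are the DESeq2 variance-stabilised log2 values of the authors. Inversion with a floor of 10.36 gave whole multiples of a library step (1 over the size factor, within 0.05) for 100% of values under a count of 5000, with size factors from 0.859 to 1.141.

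Symbols came from RefSeq (99.62% of rows matched). limma 3.58.1 in R 4.3.3 (lmFit, eBayes with trend) was fitted to all rows and 40 libraries with a term for each group. Differences are on the scale of log2(normalised count + 1), and p-values are from the deposited values. Arc rows were summed before the gene-level fit. Permutation tests used 100000 resamples, and the limma fit was tested on simulated data. Genes and lists were chosen with earlier results of these data known. All rows of the members were reported, with the 5 rows of other symbols most like each by Pearson's r, and list rows with an unadjusted p under 0.05 or the smallest p in memantine HF-HI against memantine sham. A row that this rule named is not reported here. Rows named in other comparisons were those of the lists with an unadjusted p under 0.05, chosen after their values were seen. Alternatives were other scales, normalisations and fits, a striatal covariate, the replicate number as a block, and each memantine library left out.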

Additional observations from a re-analysis of the deposited data

Results flagged for a closer look

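In groups of 10 libraries, 13 transcripts or sums and the Arc split were screened for a library far from the rest, and chance flags about 1 in 20 such sets. Library 1 of saline HF-HI stood apart for Arc, at 1704 normalised counts with the next library at 4728, for the rows NM_018790 (978, next 3107) and NM_001276684 (727, next 1439), for Dusp6 (942, next 1325) and for the share of Arc reads in NM_018790 (57.4%, next 63.9%). The same library was low for Dusp3 (2997, next 3441) and Dnajb1 (728, next 834). Library 1 of memantine HF-HI stood apart for Arc, at 1540.5 with the next at 3341, and for NM_018790 (930, next 2126). Library 5 of saline HF-HI was high for Ier5, at 1531 with the next at 1295.

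Spry2 (NM_011897) had impact differences of opposite sign in the drug arms, 0.11 ± 0.04 (SE) under saline and -0.09 ± 0.04 under memantine on the log2 scale of counts. The difference between them was -0.20 ± 0.06, with an unadjusted limma interaction p of 0.00221 and an adjusted p of 0.999 over all rows, so it failed the correction. The saline arm holds the libraries used to choose the members, of which Spry2 is not one.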

How the results depend on the processing

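In memantine HF-HI against memantine sham, no alternative brought a member to an unadjusted p under 0.05. NM_018790 and Dusp6 kept their sign in all alternatives, while NM_001276684 (-0.0013 on the deposited scale) was 0.036 on log2 counts plus 1, 0.030 with plus 50, 0.0050 with quantile normalisation, 0.0021 with median centring and 0.0072 with library weights, and Ier5 (0.0021) was -0.0044 with the striatal covariate. Leaving out 1 library gave 0.02 to 0.15 for NM_018790, -0.066 to 0.050 for NM_001276684, 0.016 to 0.056 for Dusp6, -0.0091 to 0.013 for Ier5 and 1.35 to 3.88 percentage points for the Arc split. The count of 2 effector rows was 1 with median centring, 4 without the libraries numbered 1 (added after seeing the data), and 1 to 6 with 1 library left out, with 6 without memantine sham 1 and 1 without memantine sham 2, 3 or 8; the cause was not tested. The sum of rows cannot give a value for NM_001276684 alone. All correlations kept their sign and a permutation p under 0.05, at most 0.00605, with the same permutation within groups, which does not keep the layout by number. Same-numbered libraries did not pair over the table, with correlations of their deviations from -0.13 to 0.16 and 6 of 60 best with their own number. With the replicate block the member differences stayed at 0.07, -0.0013, 0.03 and 0.0021, the effector count was 3, and r was 0.82, 0.53 and 0.59, and no member or correlation changed its side of the threshold.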

Other observations

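Effector rows with an unadjusted p under 0.05 between the sham groups were Homer1, Scg2, Sorcs3 and Rgs4 rows, all lower under memantine. A Homer1 row (NM_001284189), from a gene of postsynaptic scaffolds, was lower in memantine sham by -0.84 ± 0.31 (SE) on the log2 scale of counts (limma p = 0.00926, adjusted p = 0.554), and was at -0.82 ± 0.31 in saline HF-HI against the same saline sham libraries. The Scg2 row NM_009129, a granin of secretory vesicles, was at -0.30 ± 0.10 and -0.27 ± 0.10 in these comparisons, which share their control libraries.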
